A study of Mus musculus with 9 samples.

Results

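The genes described here are those of the acidified, degradative compartment of the cell: the vacuolar H+-ATPase (V-ATPase), the cathepsins, the thiol reductase Ifi30, the lysosomal membrane proteins Lamp1 and Lamp2, and the transcription factors Tfeb, Tfe3 and Mitf. They were chosen by symbol, as every gene whose symbol begins with Atp6v plus 20 named genes, which gave 45 of the 50686 genes in the count tables. No threshold on a measured value entered this rule, but the group was proposed with the log2 fold changes of the 3 comparisons below in view, so the calls on its genes describe these libraries and are not independent evidence. RNA-seq was performed on 3 mouse bone marrow cell lines transformed with the BCR/ABLp185 oncogene, all on a C57BL/6N background. One line was wt, the other lines were Stat5a-/- and Stat5b-/-, and the comparisons ask how the loss of either STAT5 protein changed gene expression. Each genotype was represented by 1 line and 3 technical replicates, so a p-value measures the spread between replicate libraries of 1 line, and genotype and line cannot be told apart.

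The V-ATPase is a rotary proton pump. Its peripheral V1 sector (subunits A to H) hydrolyses ATP and its membrane V0 sector (subunits a, c, c'', d and e) carries protons into endosomes, lysosomes and secretory vesicles. The cathepsins are proteases, mostly cysteine proteases with a few aspartic and serine enzymes, which work best at low pH, and Ifi30 (GILT) reduces disulfide bonds of endocytosed proteins, a step in antigen presentation on MHC class II. Lamp1 and Lamp2 are the heavily glycosylated proteins that line the lysosomal membrane. Tfeb, Tfe3 and Mitf are related basic helix-loop-helix factors that bind E-boxes in promoters of lysosomal genes and are held in the cytoplasm when mTORC1 is active at the lysosome.

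The promoters printed next were picked because they belong to members on which the results turn or hold the motifs described after them: Ifi30 and Atp6v0a4, the members with the highest fold increase in Stat5b-/-, Lamp1, which holds the most E-boxes, and Ctss, which holds a match to an interferon-response motif. Each is the 250 bases upstream of the RefSeq start on build GRCm38.p6, read 5′ to 3′ on the gene's own strand, and capitals mark every match to the motifs. Ifi30 lies at chr8:70766664-70766913 (minus strand), Lamp1 at chr8:13158911-13159160 (plus strand), Ctss at chr3:95526536-95526785 (plus strand) and Atp6v0a4 at chr6:38124587-38124836 (minus strand).
Ifi30: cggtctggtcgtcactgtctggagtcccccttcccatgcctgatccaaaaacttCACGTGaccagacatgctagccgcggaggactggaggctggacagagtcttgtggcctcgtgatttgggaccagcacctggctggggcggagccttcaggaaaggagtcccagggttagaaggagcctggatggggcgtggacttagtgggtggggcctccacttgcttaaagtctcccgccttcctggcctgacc
Lamp1: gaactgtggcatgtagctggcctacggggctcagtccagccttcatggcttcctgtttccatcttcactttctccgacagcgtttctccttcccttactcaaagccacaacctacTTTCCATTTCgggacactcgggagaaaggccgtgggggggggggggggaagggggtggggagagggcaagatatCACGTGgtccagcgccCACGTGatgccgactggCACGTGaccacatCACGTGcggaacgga
Ctss: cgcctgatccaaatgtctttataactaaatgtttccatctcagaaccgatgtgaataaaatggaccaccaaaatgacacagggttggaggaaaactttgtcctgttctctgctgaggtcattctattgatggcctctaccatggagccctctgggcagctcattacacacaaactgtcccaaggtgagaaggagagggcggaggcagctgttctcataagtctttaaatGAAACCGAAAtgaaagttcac
Atp6v0a4: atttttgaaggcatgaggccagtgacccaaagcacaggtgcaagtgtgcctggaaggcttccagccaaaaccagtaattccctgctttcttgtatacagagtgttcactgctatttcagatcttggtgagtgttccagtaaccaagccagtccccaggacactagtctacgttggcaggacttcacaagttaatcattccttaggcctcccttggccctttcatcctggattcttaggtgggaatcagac

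The motifs were searched on both strands in RefSeq windows of 250 bases before to 50 bases after each start, which were found for 33 of the 45 members. The E-box CACGTG lay in 10 of the 42 windows of these genes, those of Atp6v0b, Atp6v0d1, Atp6v0e, Atp6v1a, Ctsa, Ctsd, Ctsf, Ctsl, Ifi30 and Lamp1, and in 7.15% of all 32851 windows. Of these 10 genes 9 were tested, and 3 of them were called higher and 2 lower in Stat5b-/- against wt (all tested genes 24.2% and 22%), 2 and 1 in Stat5a-/- against wt (19.8% and 16.3%), and 1 and 3 in Stat5b-/- against Stat5a-/- (16.4% and 17.5%). Lamp1 held 4 E-boxes, and 8 of the 32851 windows held at least as many. The core of the CLEAR element bound by Tfeb, which is the E-box with GT before it and AC after it, was in none of the members' windows and in 0.326% of all windows. The STAT motif TTCNNNGAA was in the windows of Ctsc and Ctsg and in 8.3% of all windows. The core of the interferon-stimulated response element, searched as GAAA, any 2 bases and GAAA, was in the windows of Atp6v1d, Ctso, Ctss and Lamp1 and in 3.44% of all windows. In the Ifi30 window the E-box was the only match. These matches are descriptions of letters, and binding was not measured.

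Library totals lay between 11948136 and 19016396 counted reads, and 13852 genes passed the filter on low counts. Levels are given as normalized CPM, read counts brought to a common library total with TMM scaling, as mean ± SD of 3 libraries. Stat5a was at 43.1 ± 6.35 normalized CPM in wt, 12.4 ± 1.02 in Stat5a-/- and 83.7 ± 10.2 in Stat5b-/-, whereas Stat5b was at 106 ± 1.96, 142 ± 15.9 and 63.4 ± 7.72, so each knocked-out gene was lowest in its own line and some of its reads remained. All 11 B-lineage markers passed the filter, with summed levels of 5423 to 5723 in wt, 7363 to 7945 in Stat5a-/- and 6672 to 7426 in Stat5b-/-. Not all of them followed the sum: Rag1 fell from 64.7 ± 2.06 to 0.158 ± 0.0786 in Stat5a-/- and 0.667 ± 0.180 in Stat5b-/-, Vpreb2 was at 223 ± 20.5, 265 ± 4.40 and 59.6 ± 3.36, and Pax5 was lower in Stat5b-/- (log2 -0.39, edgeR adjusted p = 0.0445). All 16 T-cell markers also passed, at 798 to 1094, 1425 to 1651 and 1823 to 2588, with Lck highest in Stat5b-/- (35.1 ± 5.68, 92.5 ± 3.92 and 208 ± 15.3) and Cd2 highest in Stat5a-/- (55.1 ± 0.892, 276 ± 16.8 and 96.3 ± 6.98). Of 14 monocyte, macrophage and granulocyte markers 4 passed, and their sum of 158 to 209, 263 to 291 and 345 to 437 was mostly Ly6c2. Against this sum, Fcgr1 fell from 1.45 ± 0.340 to 0.292 ± 0.0294 in Stat5a-/- and 0.162 ± 0.156 in Stat5b-/-. The NK-cell markers (6 of 8 tested) summed to 30.4 to 47.7, 35.1 to 47.6 and 47.4 to 87.3, although Klrb1c fell from 10.3 ± 0.332 to 4.43 ± 0.622 and 1.63 ± 0.107. The mast-cell and basophil markers (1 of 8) summed to 0.758 to 0.952, 0.992 to 1.38 and 1.30 to 1.92 with Fcer1a and Mcpt8 at 0 reads, and the osteoclast markers (1 of 6) to 102 to 121, 235 to 299 and 168 to 226 with Calcr and Dcstamp at 0 reads. The osteoclast sum was almost all Nfatc1 (113 ± 10.4, 257 ± 36.5 and 199 ± 29.1), a gene that lymphocytes also use, while Oscar, Mmp9 and Ocstamp stayed below 1 CPM. In bulk RNA, a change in the number of cells of a type cannot be told apart from a change in RNA per cell, and the part of these marker levels in the results below was not tested.

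Of the 45 members 34 passed the filter. Those below it held at most 27 reads over all 9 libraries: Atp6v0c-ps2 with 27, Atp6v1fnb with 13, Atp6v0d2 with 11, Ctsk with 10, Atp6v1c2 with 8, Atp6v1g3 and Atp6v0c-ps1 with 7 each, and Atp6v0e2 and Ctsf with 2 each. The neutrophil protease Ctsg and the testis V1 subunit Atp6v1e2 had 0 reads, which over the pooled libraries allows up to 0.0226 CPM and covers counting error only. The osteoclast genes Ctsk and Atp6v0d2 were thus near the detection limit in every line.

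In Stat5b-/- against wt, the quasi-likelihood test of edgeR, with p-values adjusted over all tested genes by Benjamini-Hochberg, called 10 of the 34 members higher and 5 lower at an adjusted p under 0.05, against 24.2% and 22% of all tested genes. Past a fold change of 2 as well, 5 members were higher and 1 was lower, against 10.6% and 8.44% of all genes. In Stat5a-/- against wt 9 members were called higher and 5 lower (all genes 19.8% and 16.3%), and 4 and 1 of these passed a fold change of 2 (all genes 7.75% and 6.49%). In Stat5b-/- against Stat5a-/- 6 were called higher and 9 lower (all genes 16.4% and 17.5%), 1 and 2 of them past a fold change of 2 (all genes 4.81% and 6.6%). As shares of the 34, these calls were 29.4% and 14.7%, 26.5% and 14.7%, and 17.6% and 26.5%. Some of these counts moved by over 1.5 times with the processing: in Stat5b-/- against wt to 6 higher without wt replicate 2 and to 8 lower (RLE scaling, or without Stat5a-/- replicate 3) or 9 lower (GC correction), and in Stat5b-/- against Stat5a-/- to 11 higher (GC correction). The median log2 fold change of the members was -0.05, 0.06 and -0.09 in the 3 comparisons, beside 0.02, 0.0099 and 0.02 over all tested genes. The libraries of the 2 lines did not overlap for 10 members higher and 7 lower in Stat5b-/- against wt (all genes 27.4% and 26.8%), 10 and 6 in Stat5a-/- against wt (25.5% and 23.7%), and 8 and 10 in Stat5b-/- against Stat5a-/- (22.3% and 22.5%). The group did not move as a block: 23, 21 and 20 of the 34 lay within 0.5 of 0 on the log2 scale, and a few members changed by a large factor. The 2 comparisons with wt share the wt libraries, so their values are set side by side without a test of likeness.

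**Figure D1:**
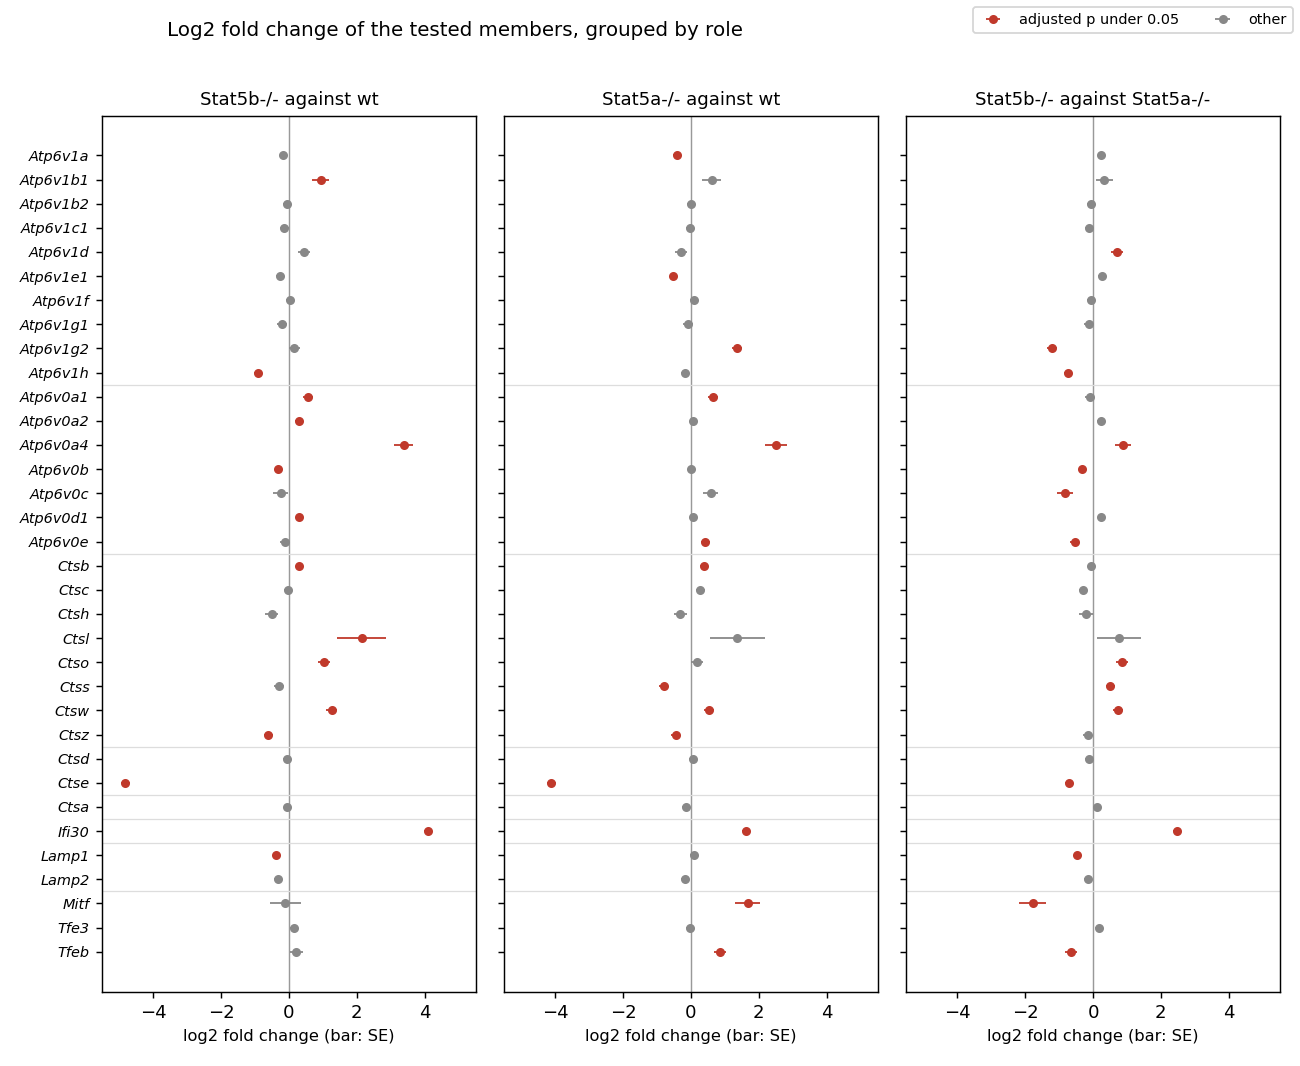
Log2 fold changes of the 34 tested members in the 3 comparisons, with bars for the SE and red for an adjusted p under 0.05, ordered from V1 and V0 subunits through cathepsins and Ifi30 to Lamp1, Lamp2 and the 3 factors. Most points lie near 0, while Ifi30 reaches 4.09 and Ctse -4.82 in Stat5b-/- against wt.

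Most of the V-ATPase stayed close to its wt level. Of its 22 subunit genes with an Atp6v symbol 17 were tested, and 13 of these in Stat5b-/- and 11 in Stat5a-/- lay within 0.5 of wt on the log2 scale. The a3 subunit gene Tcirg1, given below, has no such symbol and is not in these counts or in those of the V0 sector. In the V1 sector (10 tested) 1 gene was called higher and 1 lower in Stat5b-/- against wt, 1 and 2 in Stat5a-/- against wt, and 1 and 2 in Stat5b-/- against Stat5a-/-. These counts out of 10 stand beside 24.2% and 22%, 19.8% and 16.3%, and 16.4% and 17.5% of all genes. Atp6v1b2, the widely expressed isoform of the nucleotide-binding subunit B, was at 149, 149 and 142 normalized CPM in wt, Stat5a-/- and Stat5b-/-, and was called in no comparison. The same held for Atp6v1c1 (36.0, 35.3 and 32.8), Atp6v1f (65.1, 69.8 and 66.9) and Atp6v1g1 (18.5, 17.4 and 16.1), which encode subunits C, F and G.

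Atp6v1h (chr1:5070018-5162529), subunit H, which regulates the coupling of V1 to V0, fell in Stat5b-/-. It measured 47.0, 52.8 and 51.7 normalized CPM in the wt libraries, 49.9, 42.1 and 41.2 in Stat5a-/-, and 26.5, 26.2 and 27.5 in Stat5b-/-. Every Stat5b-/- library lay below every library of the other lines, while wt and Stat5a-/- overlapped. The log2 fold change was -0.92 (SE 0.11, edgeR adjusted p = 1.6e-05) against wt and -0.73 (SE 0.11, edgeR adjusted p = 2.12e-04) against Stat5a-/-, whereas Stat5a-/- differed from wt by -0.19 (edgeR adjusted p = 0.201).

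Atp6v1g2 (chr17:35233660-35238767), a G isoform best known from neurons, rose in Stat5a-/-. Its levels were 4.95, 4.75 and 5.31 normalized CPM in wt, 11.5, 13.9 and 13.3 in Stat5a-/-, and 6.24, 5.74 and 4.65 in Stat5b-/-. All 3 Stat5a-/- libraries were above every other. The rise over wt was 2.57-fold (log2 1.36, SE 0.16, edgeR adjusted p = 1.28e-05), and Stat5b-/- lay below Stat5a-/- by -1.21 on the log2 scale (SE 0.16, edgeR adjusted p = 6.31e-05). Atp6v1g2 overlaps Nfkbil1 on the opposite strand and the counting did not use strand. Nfkbil1 itself gave -0.29 in Stat5a-/- against wt on the log2 scale (edgeR adjusted p = 0.281), and was lower in Stat5b-/- than in Stat5a-/- by -0.81 (edgeR adjusted p = 0.0103) and than in wt by -1.10 (edgeR adjusted p = 7.14e-04). Its part in the reads of Atp6v1g2 was not tested.

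Atp6v1b1 (chr6:83742990-83758855), the B isoform of kidney intercalated cells, was low throughout. It was at 0.825, 1.21 and 1.33 normalized CPM in wt, 1.61, 2.03 and 1.53 in Stat5a-/-, and 2.33, 1.85 and 2.36 in Stat5b-/-, so the knockout lines overlapped each other and both lay above wt. It rose in Stat5b-/- against wt (log2 0.94, SE 0.26, edgeR adjusted p = 0.00886), while Stat5a-/- against wt gave 0.61 (edgeR adjusted p = 0.0983). Atp6v1a, the catalytic A subunit (71.7, 53.7 and 63.9 normalized CPM in wt, Stat5a-/- and Stat5b-/-), and Atp6v1e1, the stalk subunit E (147, 103 and 123), fell in Stat5a-/-, with log2 fold changes of -0.42 and -0.52 against wt (edgeR adjusted p = 0.00832 and 0.00197). Atp6v1e1 also gave -0.26 in Stat5b-/- against wt (edgeR adjusted p = 0.0609), which passed under 8 of 17 alternative analyses, DESeq2 among them (adjusted p = 0.0244). Atp6v1d, the rotor subunit D (39.3, 32.3 and 53.4), was 0.72 higher in Stat5b-/- than in Stat5a-/- on the log2 scale (edgeR adjusted p = 0.00749).

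In the V0 sector 7 of 9 genes were tested, and 4 were called higher and 1 lower in Stat5b-/- against wt, 3 and 0 in Stat5a-/- against wt, and 1 and 3 in Stat5b-/- against Stat5a-/-. As shares of the 7 genes these were 57.1% and 14.3%, 42.9% and 0%, and 14.3% and 42.9%, beside the 24.2% and 22%, 19.8% and 16.3%, and 16.4% and 17.5% called over all genes. Genes of the membrane subunit a made up 3, 2 and 1 of these calls. Atp6v0a4 (chr6:38048483-38124586), the a4 isoform known from renal intercalated cells and the inner ear, rose most of all V-ATPase genes. It had 5, 9 and 6 reads in the wt libraries, 27, 27 and 28 in Stat5a-/-, and 47, 60 and 63 in Stat5b-/-, or 0.373 ± 0.0723, 2.20 ± 0.318 and 4.04 ± 0.790 normalized CPM. None of the 3 lines overlapped another, with wt lowest and Stat5b-/- highest. The rise over wt was 10.5-fold in Stat5b-/- (log2 3.39, SE 0.28, edgeR adjusted p = 6.41e-07) and 5.69-fold in Stat5a-/- (log2 2.51, SE 0.31, edgeR adjusted p = 2.89e-05), and Stat5b-/- was above Stat5a-/- by 0.88 (SE 0.23, edgeR adjusted p = 0.00951). The first bases of Atp6v0a4 overlap D630045J12Rik on the same strand, whose log2 fold change was 1.48 in Stat5b-/- against wt, -2.48 in Stat5a-/- against wt and 3.96 in Stat5b-/- against Stat5a-/-. The part of that overlap in the counts was not tested.

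The other a isoforms were more abundant. Atp6v0a1 rose in both knockout lines, from 20.7 normalized CPM in wt to 32.7 in Stat5a-/- (log2 0.66, edgeR adjusted p = 0.00246) and 30.4 in Stat5b-/- (log2 0.56, edgeR adjusted p = 0.00578). Atp6v0a2, the isoform of the Golgi and early endosomes, was at 50.1, 52.3 and 61.2 and was called higher in Stat5b-/- (log2 0.29, edgeR adjusted p = 0.0404). Stat5b-/- against Stat5a-/- gave 0.22 (edgeR adjusted p = 0.124), which passed with a correction for GC content (0.0229, or 0.0427 with the replicate block) and without Stat5b-/- replicate 2 (0.0395). Tcirg1, the a3 isoform of lysosomes and osteoclasts, lies outside the Atp6v symbols and was at 87.2 ± 6.51, 149 ± 23.3 and 129 ± 13.7, with a rise of 0.77 in Stat5a-/- (edgeR adjusted p = 3.07e-04) and 0.56 in Stat5b-/- (edgeR adjusted p = 0.00255). Per kb of exon, Tcirg1 made up 64.6 ± 1.58% of subunit a transcripts in wt, 71.5 ± 1.94% in Stat5a-/- and 66.4 ± 3.79% in Stat5b-/-, and Atp6v0a4 0.250 ± 0.0602%, 0.951 ± 0.0191% and 1.89 ± 0.472%. The large fold change of Atp6v0a4 therefore concerned a minor isoform. In subunit G, Atp6v1g2 made up 10.9 ± 1.07%, 25.1 ± 3.37% and 13.8 ± 4.01% of transcripts per kb, the remainder being almost all Atp6v1g1. These shares were not tested.

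**Figure D2:**
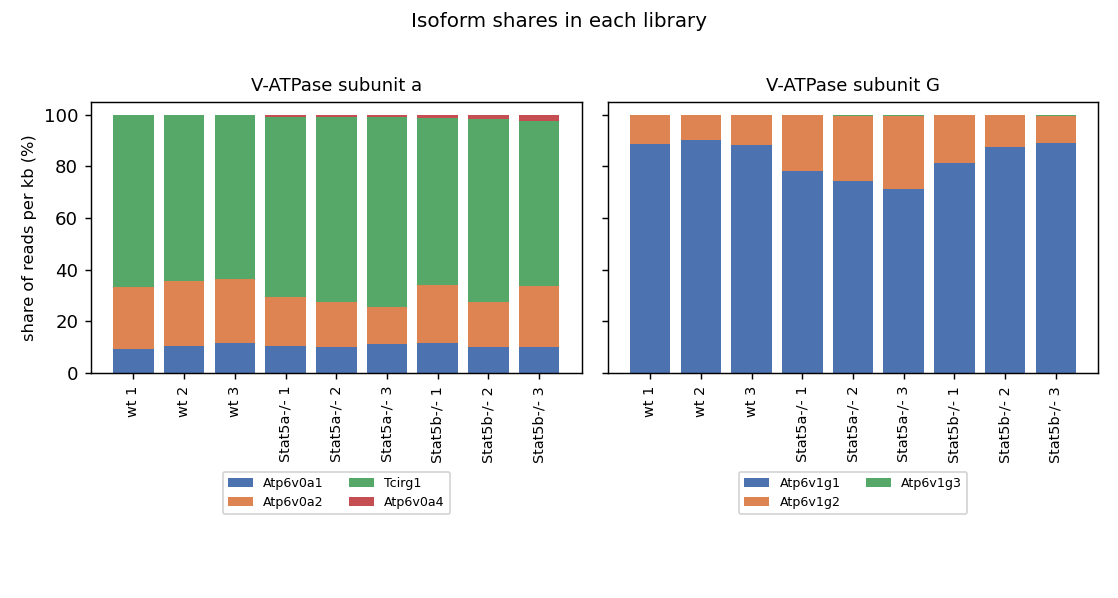
Share of each isoform among transcripts of V-ATPase subunits a and G, in % of normalized CPM per kb of exon, stacked for each of the 9 libraries. Tcirg1 is the main a isoform in every library and Atp6v0a4 a thin band that is widest in Stat5b-/-, and Atp6v1g2 takes 21.7% to 28.5% of subunit G in the Stat5a-/- libraries.

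The remaining V0 subunits changed by less than 1 on the log2 scale. Atp6v0d1, the d subunit on the central stalk, was at 93.9, 97.2 and 115 normalized CPM in wt, Stat5a-/- and Stat5b-/-, with 0.29 in Stat5b-/- against wt (edgeR adjusted p = 0.0196). Atp6v0b, the c'' proteolipid, was at 34.7, 34.6 and 27.8, with -0.32 in Stat5b-/- against wt (edgeR adjusted p = 0.0228). The small subunit e gene Atp6v0e, which had the highest level per kb of all members in wt (86.8 normalized CPM per kb), was at 283, 379 and 260.4 and rose in Stat5a-/- by 0.42 (edgeR adjusted p = 0.0236), and Stat5b-/- lay below Stat5a-/- by -0.54 (edgeR adjusted p = 0.00696), a call that held under all 17 alternatives. Atp6v0c, the c proteolipid of the rotor ring, was at 19.7, 29.4 and 16.5, lower in Stat5b-/- than in Stat5a-/- by -0.82 (edgeR adjusted p = 0.0125). Its value in Stat5a-/- against wt was 0.58 (edgeR adjusted p = 0.0559), which passed under 4 of 17 alternative analyses. The calls on Atp6v0a2, Atp6v0b and Atp6v0d1 in Stat5b-/- against wt, on Atp6v0e in Stat5a-/- against wt, and on Atp6v0b and Atp6v0c in Stat5b-/- against Stat5a-/- were lost under at least 1 of 17 alternative analyses, that on Atp6v0a2 under 13 of them and that on Atp6v0b in Stat5b-/- against Stat5a-/- under 11.

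The proteins that assemble or accompany the pump were read, together with the a3 subunit gene Tcirg1, from a list of 16 genes, 14 of them tested. Of the tested genes 3 were called higher and 2 lower in Stat5b-/- against wt, 4 and 2 in Stat5a-/- against wt, and 1 and 2 in Stat5b-/- against Stat5a-/-. The list's shares of 21.4% and 14.3%, 28.6% and 14.3%, and 7.14% and 14.3% stand beside 24.2% and 22%, 19.8% and 16.3%, and 16.4% and 17.5% over all genes. Dmxl2, a rabconnectin that promotes assembly of V1 on V0, fell most: from 91 to 118 reads per library in wt to 5 to 8 in Stat5a-/- (log2 -3.48, edgeR adjusted p = 3.55e-07) and to 1, 0 and 0 reads in Stat5b-/- (edgeR adjusted p = 1.8e-08). Tmem199, an assembly factor of the V0 sector, fell in Stat5b-/- (log2 -0.65, edgeR adjusted p = 7.95e-04) and in Stat5a-/- (log2 -0.48, edgeR adjusted p = 0.00802). Rises in Stat5b-/- were those of Tcirg1, given above, of Rogdi (log2 0.83, edgeR adjusted p = 0.00128) and of Ncoa7, which binds the V1 sector (log2 0.49, edgeR adjusted p = 8.23e-04). The accessory proteins Atp6ap1 and Atp6ap2 had values of 0.16 and 0.25 in Stat5b-/- against wt, neither past the test. In Stat5a-/- against wt Atp6ap1 was called higher (log2 0.25, edgeR adjusted p = 0.043), and Atp6ap2 was not called (log2 -0.06, edgeR adjusted p = 0.800).

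Among the 14 cathepsins 11 were tested. In Stat5b-/- against wt 4 were called higher and 2 lower, in Stat5a-/- against wt 2 and 3, and in Stat5b-/- against Stat5a-/- 3 and 1. As shares of the 11, these were 36.4% and 18.2%, 18.2% and 27.3%, and 27.3% and 9.09%, beside 24.2% and 22%, 19.8% and 16.3%, and 16.4% and 17.5% of all tested genes. Ctse (chr1:131638306-131675505), an aspartic protease of endosomes in immune and gastric cells, showed the largest fall of all members. Its levels were 244, 254 and 250.1 normalized CPM in wt, 14.3, 14.6 and 14.3 in Stat5a-/-, and 9.33, 7.04 and 10.2 in Stat5b-/-. In wt it stood below Atp6v0e and Lamp1 and above the other members per kb of exon, at 78.8 normalized CPM per kb, against 4.56 in Stat5a-/- and 2.79 in Stat5b-/-. The 3 lines did not overlap. The log2 fold change was -4.82 in Stat5b-/- (SE 0.13, edgeR adjusted p = 3.68e-11) and -4.11 in Stat5a-/- (SE 0.13, edgeR adjusted p = 8.25e-11), and Stat5b-/- lay below Stat5a-/- by -0.71 (SE 0.13, edgeR adjusted p = 0.00115). The other aspartic cathepsin, Ctsd, a main protease of the lysosome, was at 59.4, 61.9 and 57.2 normalized CPM in wt, Stat5a-/- and Stat5b-/- and was called in no comparison.

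**Figure D3:**
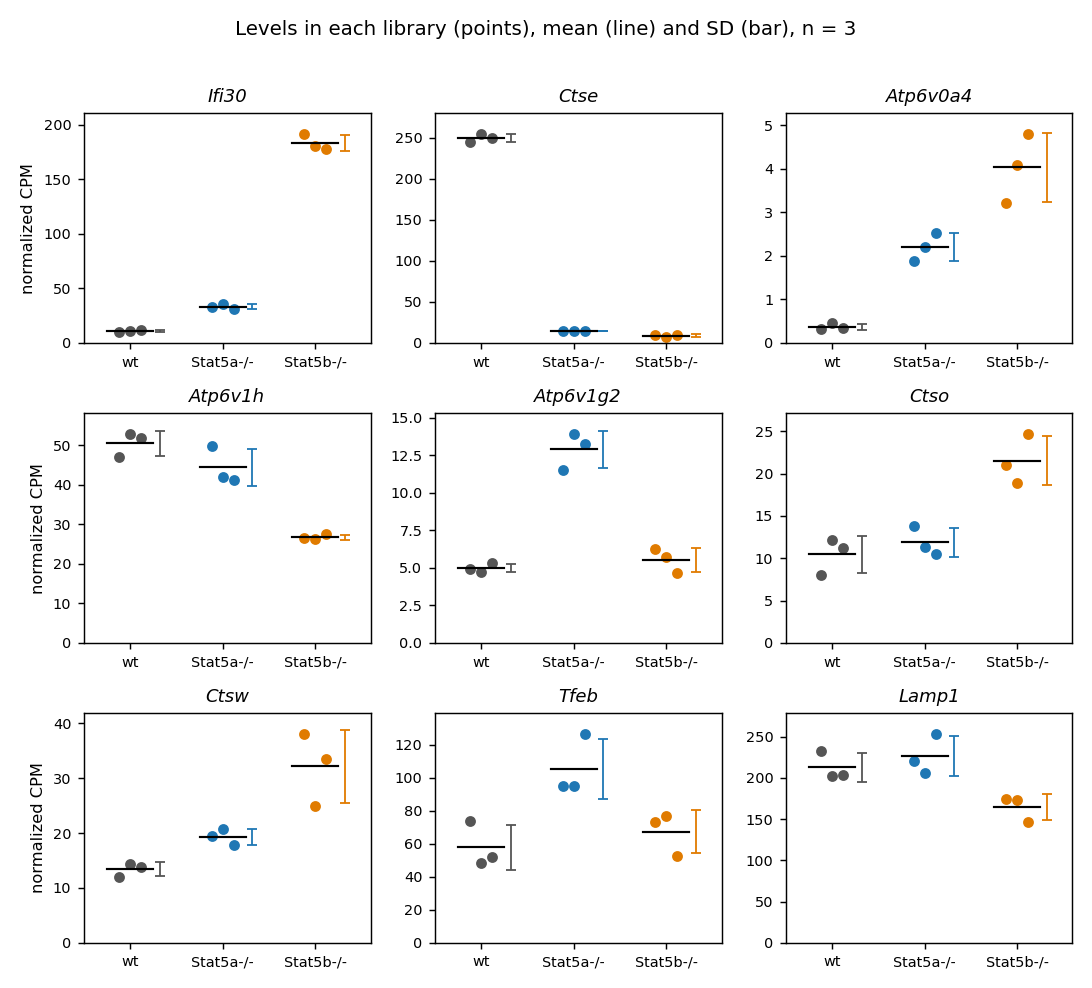
Normalized CPM of 9 members in each library (points) with the mean (line) and SD (bar) of 3 libraries per genotype, each panel from 0 on its own scale. Ifi30 and Atp6v0a4 climb from wt through Stat5a-/- to Stat5b-/-, Ctse is highest in wt, Atp6v1h is lowest in Stat5b-/-, and Atp6v1g2 and Tfeb are highest in Stat5a-/-.

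Of the cysteine cathepsins, Ctso and Ctsw rose in Stat5b-/-. Ctso (chr3:81932601-81956725), a broadly expressed member, was at 7.995, 12.2 and 11.3 normalized CPM in wt, 13.8, 11.3 and 10.5 in Stat5a-/-, and 21.0, 18.9 and 24.7 in Stat5b-/-. All Stat5b-/- libraries were above the others, and wt and Stat5a-/- overlapped. Stat5b-/- was 2.05-fold above wt (log2 1.03, SE 0.17, edgeR adjusted p = 3.08e-04) and 0.85 above Stat5a-/- on the log2 scale (SE 0.17, edgeR adjusted p = 0.00238), whereas Stat5a-/- against wt gave 0.18 (edgeR adjusted p = 0.462).

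Ctsw (chr19:5465240-5468498), a cathepsin known from cytotoxic T cells and NK cells, was at 11.99, 14.4 and 13.9 normalized CPM in wt, 19.5, 20.7 and 17.9 in Stat5a-/-, and 38.1, 24.9 and 33.6 in Stat5b-/-. Libraries of the 3 lines did not overlap. Stat5b-/- was 2.40-fold above wt (log2 1.26, SE 0.15, edgeR adjusted p = 2.21e-05), and Stat5a-/- was 0.53 above wt (SE 0.16, edgeR adjusted p = 0.0185), a call that was lost without wt replicate 1 (edgeR adjusted p = 0.0644), Stat5a-/- replicate 1 (0.06) or Stat5a-/- replicate 2 (0.0766). That call was also lost with a correction for GC content (log2 0.38, edgeR adjusted p = 0.0641; 0.0999 with the replicate block). The summed level of the 16 T-cell markers, given above, was also lowest in wt and highest in Stat5b-/-. As a percentage of that sum, Ctsw was 1.40 ± 0.0954% in wt, 1.25 ± 0.0170% in Stat5a-/- and 1.40 ± 0.0577% in Stat5b-/-. Relative to single markers, picked after the values were seen, it was 6.34 ± 0.608%, 6.62 ± 0.195% and 6.81 ± 0.246% of the sum of Cd3d, Cd3e and Cd3g, with overlapping ranges, but 38.5 ± 3.06%, 21.0 ± 1.85% and 15.4 ± 2.14% of Lck, with no overlap. These percentages carry no test, and the part of T-cell transcripts in the Ctsw values was not tested.

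Ctss, the cathepsin that processes the invariant chain in antigen-presenting cells, fell in Stat5a-/-: its means were 40.6, 23.2 and 33.2 normalized CPM in wt, Stat5a-/- and Stat5b-/-. Its log2 fold change was -0.81 in Stat5a-/- against wt (edgeR adjusted p = 4.65e-04), -0.29 in Stat5b-/- against wt (edgeR adjusted p = 0.0957) and 0.52 in Stat5b-/- against Stat5a-/- (edgeR adjusted p = 0.0129). Ctsz, a carboxypeptidase, fell in both lines, from 76.9 to 56.5 in Stat5a-/- (log2 -0.45, edgeR adjusted p = 0.0166) and 50.4 in Stat5b-/- (log2 -0.61, edgeR adjusted p = 0.002). The call in Stat5a-/- was lost without wt replicate 1 (edgeR adjusted p = 0.0765), Stat5a-/- replicate 1 (0.0697) or Stat5a-/- replicate 2 (0.0578). Ctsb rose slightly in both, from 83.2 to 108 (log2 0.37, edgeR adjusted p = 0.00618) and 102 (log2 0.30, edgeR adjusted p = 0.0164). The latter call was lost without a filter on low counts (edgeR adjusted p = 0.0925), without wt replicate 2 (0.0832) or without wt replicate 3 (0.0675). The processing proteases Ctsc and Ctsh and the serine carboxypeptidase Ctsa were called in no comparison. With the GC correction, however, Ctsc (log2 0.40, edgeR adjusted p = 4.78e-04) and Ctsa (log2 -0.34, edgeR adjusted p = 7.81e-04) passed in Stat5a-/- against wt, and Ctsh in Stat5b-/- against wt (log2 -0.49, edgeR adjusted p = 0.0369). Ctsl had 2, 4 and 5 reads in wt, 13, 7 and 1 in Stat5a-/-, and 23, 3 and 14 in Stat5b-/-, with overlap between all lines. Its call in Stat5b-/- against wt (log2 2.14, edgeR adjusted p = 0.0274) was lost without Stat5b-/- replicate 1 (log2 1.51, edgeR adjusted p = 0.162), Stat5b-/- replicate 3 (0.0515), wt replicate 1 (0.0768) or wt replicate 2 (0.0678).

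The protein inhibitors of proteases, not all of which act on cathepsins, were a list of 10 genes, 8 of them tested. In Stat5b-/- against wt 5 were called higher and 2 lower, in Stat5a-/- against wt 1 and 2, and in Stat5b-/- against Stat5a-/- 2 and 2. Over all tested genes 24.2% and 22%, 19.8% and 16.3%, and 16.4% and 17.5% were called. Cst3, a secreted cysteine protease inhibitor, fell in Stat5b-/- from 480.5 ± 23.4 to 326 ± 5.04 normalized CPM (log2 -0.56, edgeR adjusted p = 1.63e-04), and Serpinb1a, an inhibitor of neutrophil proteases, from 25.5 ± 0.555 to 6.74 ± 0.956 (log2 -1.92, edgeR adjusted p = 1.06e-07). Both also fell in Stat5a-/-, Cst3 to 367 ± 6.80 (log2 -0.39, edgeR adjusted p = 0.00309) and Serpinb1a to 16.1 ± 1.24 (log2 -0.66, edgeR adjusted p = 9.93e-04). In Stat5b-/- Serpinb9, an inhibitor of granzyme B, rose from 8.98 ± 1.70 to 18.7 ± 3.19 (log2 1.05, edgeR adjusted p = 3.65e-04), and Serpinb6b and Serpina3g rose by 1.12 and 1.37 on the log2 scale (edgeR adjusted p = 0.00375 and 0.0102).

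Ifi30 (chr8:70762774-70766663) rose most of all members in Stat5b-/-. Its levels were 9.58, 11.2 and 11.6 normalized CPM in wt, 32.5, 35.6 and 31.1 in Stat5a-/-, and 191, 180.4 and 178 in Stat5b-/-. All 3 lines were far apart, with wt lowest and Stat5a-/- between. The rise over wt was 16.97-fold in Stat5b-/- (log2 4.09, SE 0.11, edgeR adjusted p = 3.68e-11) and 3.07-fold in Stat5a-/- (log2 1.62, SE 0.11, edgeR adjusted p = 1e-07), and Stat5b-/- was 5.54-fold above Stat5a-/- (log2 2.47, SE 0.11, edgeR adjusted p = 2e-09). These 3 calls held under all 17 alternative analyses. Per kb of exon, Ifi30 went from 10.98 normalized CPM per kb in wt to 33.7 in Stat5a-/- and 187 in Stat5b-/-.

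Lamp1 (chr8:13159161-13175338) was somewhat lower in Stat5b-/-. It was at 233, 202 and 203 normalized CPM in wt, 221, 206 and 253 in Stat5a-/-, and 174, 173 and 147 in Stat5b-/-, so the Stat5b-/- libraries lay below all others. The log2 fold change was -0.37 against wt (SE 0.11, edgeR adjusted p = 0.0161) and -0.46 against Stat5a-/- (SE 0.11, edgeR adjusted p = 0.00707). The call against wt was lost without wt replicate 1 (edgeR adjusted p = 0.0667) or Stat5b-/- replicate 3 (0.0593). Lamp2 (chrX:38401357-38456454), which is also needed for chaperone-mediated autophagy, was at 113, 141 and 133 normalized CPM in wt, 117, 124 and 102 in Stat5a-/-, and 91.8, 103 and 116 in Stat5b-/-, with overlap between all lines. It gave -0.32 in Stat5b-/- against wt (SE 0.12, edgeR adjusted p = 0.0504). That difference passed under 11 of the 17 alternatives, among them DESeq2 (adjusted p = 0.0233) and the GC correction (edgeR adjusted p = 0.00146).

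Of the 3 factors that drive lysosomal genes, Tfeb and Mitf were highest in Stat5a-/-. Tfeb (chr17:47737030-47792419) was at 73.5, 48.3 and 52.0 normalized CPM in wt, 94.6, 95.0 and 126 in Stat5a-/-, and 72.9, 76.5 and 52.5 in Stat5b-/-. Every Stat5a-/- library lay above the others, which overlapped. Stat5a-/- was 1.82-fold above wt (log2 0.86, SE 0.18, edgeR adjusted p = 0.00226), Stat5b-/- against wt gave 0.22 (SE 0.18, edgeR adjusted p = 0.353, but 0.30 with an adjusted p of 0.0128 under the GC correction), and Stat5b-/- was below Stat5a-/- by -0.64 (SE 0.18, edgeR adjusted p = 0.0159). The last call was lost without Stat5a-/- replicate 3 (edgeR adjusted p = 0.0627) or Stat5b-/- replicate 3 (0.05). Mitf (chr6:97807052-98021349) had 4, 11 and 8 reads in wt, 27, 13 and 13 in Stat5a-/-, and 7, 4 and 6 in Stat5b-/-, with 1.67 in Stat5a-/- against wt (SE 0.37, edgeR adjusted p = 0.00335). In Stat5b-/- against Stat5a-/- Mitf gave -1.77 (SE 0.40, edgeR adjusted p = 0.00428), and wt and Stat5b-/- overlapped. Tfe3 (chrX:7762560-7775202) was at 51.5, 43.7 and 47.1 normalized CPM in wt, 42.3, 44.0 and 53.7 in Stat5a-/-, and 55.7, 54.9 and 46.5 in Stat5b-/-, with overlap between all lines and no call in any comparison. With the GC correction Tfe3 was 0.33 higher in Stat5b-/- than in Stat5a-/- (edgeR adjusted p = 0.00317) and -0.20 in Stat5a-/- against wt (edgeR adjusted p = 0.0459).

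The control of these factors at the lysosome was a list of 19 genes, 18 of them tested, with 5 called higher and 2 lower in Stat5b-/- against wt, 4 and 4 in Stat5a-/- against wt, and 4 and 1 in Stat5b-/- against Stat5a-/-. In percent of the tested genes these were 27.8% and 11.1%, 22.2% and 22.2%, and 22.2% and 5.56%, against 24.2% and 22%, 19.8% and 16.3%, and 16.4% and 17.5% of all genes. The kinase gene Mtor rose in Stat5b-/- from 488 ± 40.0 to 780 ± 110 normalized CPM (log2 0.68, edgeR adjusted p = 0.00119), while Stat5a-/- against wt gave 0.03 (edgeR adjusted p = 0.873). Its partner Rptor rose by 0.62 in Stat5b-/- (edgeR adjusted p = 0.00316) and 0.50 in Stat5a-/- (edgeR adjusted p = 0.0148). The Ragulator subunit Lamtor4 rose by 0.87 in Stat5b-/- (edgeR adjusted p = 0.00104) and 0.56 in Stat5a-/- (edgeR adjusted p = 0.0216). Fnip2, a partner of folliculin, fell in Stat5b-/- (log2 -1.36, edgeR adjusted p = 0.00271) and in Stat5a-/- (log2 -3.32, edgeR adjusted p = 3.37e-05). Rraga, a Rag GTPase, also fell in Stat5b-/- (log2 -0.52, edgeR adjusted p = 5.17e-04) and in Stat5a-/- (log2 -0.59, edgeR adjusted p = 2.44e-04).

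Chromosome 17 as a whole was higher in Stat5a-/-. Of its 677 tested genes 56.1% were called higher and 3.55% lower against wt, with a median log2 fold change of 0.53, and the medians of chromosomes 18 and 19 were 0.43 and 0.41. On all chromosomes but these 3, 15.8% of 12380 genes were called higher and 17.6% lower, with a median of -0.03. Atp6v0c, Atp6v0e, Atp6v1g2 and Tfeb lie on chromosome 17, and their values in Stat5a-/- against wt differed from the chromosome's median by 0.04, -0.11, 0.83 and 0.33. Of these 4, 3 were called higher in Stat5a-/- against wt, none was called in Stat5b-/- against wt (27.9% higher and 17% lower over the chromosome), and all were called lower in Stat5b-/- against Stat5a-/- (6.5% higher and 45.6% lower over the chromosome, median -0.42). Without chromosome 17, the members called higher and lower numbered 6 and 5 of 30 in Stat5a-/- against wt and 6 and 5 in Stat5b-/- against Stat5a-/-, a comparison in which 17.4% of the genes on all chromosomes but 17, 18 and 19 were called higher and 13.8% lower. Ctsw and Tcirg1 lie on chromosome 19. Chromosome 6 had the highest median in Stat5b-/- against wt, 0.22, with 36.5% of its 694 tested genes called higher and 17.4% lower, and it holds 5 tested members: Atp6v0a4 and Atp6v1b1, which were called higher, and Atp6v1e1, Atp6v1f and Mitf, which were not called. The part of these chromosome-wide differences in the members' values was not tested.

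**Figure D4:**
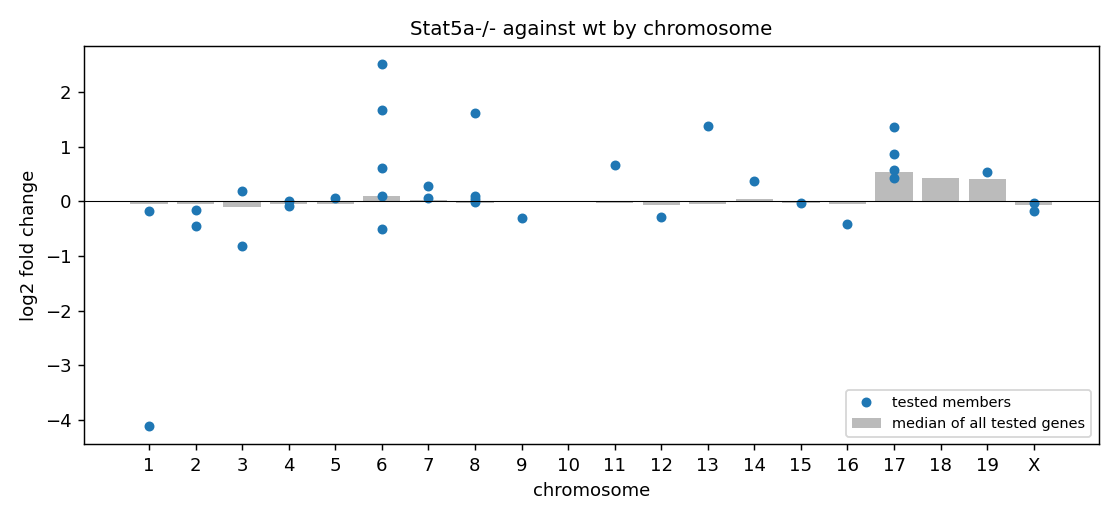
Log2 fold change in Stat5a-/- against wt by chromosome, with a bar for the median of all tested genes and a point for each of the 34 tested members. The bars of chromosomes 17, 18 and 19 reach 0.53, 0.43 and 0.41 while the others stay near 0, and Ctse (chromosome 1, -4.11) and Atp6v0a4 (chromosome 6, 2.51) lie far from the bars of their chromosomes.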

How the data were processed

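RNA-seq counts of 9 mouse libraries were used. The authors trimmed the 50-base single-end reads with Trimmomatic, mapped them with STAR at default settings to GRCm38 (GENCODE M13), and deposited raw counts per gene made by featureCounts 1.5.1. Per the file headers, no strand and no multi-mapping option was set, so overlapping genes on either strand and near-identical copies such as the Atp6v0c pseudogenes are uncertain. Samples were grouped by genotype label and title. For the knockout samples a further deposited text names wt cells, which conflicts with both. TMM scaling and edgeR 4.0.16 (R 4.3.3) were used, with filterByExpr, then glmQLFit and glmQLFTest on the 9 libraries and Benjamini-Hochberg adjustment over 13852 genes. Each SE was computed by dividing the size of the log2 fold change by the root of its F statistic. Totals of 11948136 to 19016396 counts leave genes with a few reads imprecise, and intervals and floors cover counting error only. Replicate libraries differed by more than sampling noise.

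The members and all lists were chosen with earlier results of these data known. Values in every library are given for members past an adjusted p of 0.05 and a fold change of 2 in a comparison with a mean of at least 20 counts, for Lamp1, Lamp2, Ifi30 and the 3 factors, and for the 4 V-ATPase subunits with the largest change. Ctsl and Dmxl2 are shown in addition, chosen after their values were seen, and from each other list at most 3 rises and 3 falls in Stat5b-/- are named. Levels between genes were compared per kb of exon. Promoters came from RefSeq on GRCm38.p6, where 12 members had no entry. Alternatives were DESeq2 1.42.0, RLE scaling, no filter, a filter on a mean count of 10, a fit of the compared pair of genotypes alone, a replicate block, a GC correction with and without that block, and each library left out.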

Additional observations from a re-analysis of the deposited data

How the results depend on the processing

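The number of members called depended on some settings, and the cause was not tested. In Stat5b-/- against wt the members called lower were 5, but 8 with RLE scaling, 9 with a GC correction and 9 with the GC correction and the replicate block, and 4 to 8 when 1 library was left out (8 without Stat5a-/- replicate 3). The members called higher there were 10, and 6 to 10 with 1 library left out (6 without wt replicate 2). In Stat5b-/- against Stat5a-/- the members called higher were 6, but 11 with the GC correction and 11 with the GC correction and the replicate block. With 1 library left out, the counts were 7 to 10 higher and 4 to 5 lower in Stat5a-/- against wt, and 6 to 7 higher and 7 to 9 lower in Stat5b-/- against Stat5a-/-. Replicate numbers did not pair the libraries: the mean correlation of same-numbered libraries was -0.0877 (9 pairs), and that of differently numbered ones was 0.0438 (18 pairs). The replicate block alone gave 8 higher and 4 lower in Stat5b-/- against wt, 8 and 5 in Stat5a-/- against wt, and 6 and 8 in Stat5b-/- against Stat5a-/-. Under all 17 alternatives, 6 of the 10 higher and 3 of the 5 lower calls held in Stat5b-/- against wt, 7 of 9 and 4 of 5 in Stat5a-/- against wt, and 6 of 6 and 6 of 9 in Stat5b-/- against Stat5a-/-. With the GC correction, values not called in the reported analysis also passed for Ctss, Atp6v1e1 and Atp6v1d in Stat5b-/- against wt and for Lamp2, Ctsa, Ctsc, Atp6v0a2, Atp6v0d1, Atp6v1e1 and Tfe3 in Stat5b-/- against Stat5a-/-, some of which other alternatives called too. Among the log2 fold changes of the members given by library, sign changes were limited to 3 that were not called: with 1 library left out, Mitf in Stat5b-/- against wt ranged from -0.34 to 0.14 (0.14 without wt replicate 2 and 0.11 without Stat5b-/- replicate 2), Lamp1 in Stat5a-/- against wt from -0.026 to 0.16 (-0.026 without Stat5a-/- replicate 3), and Tfe3 in Stat5a-/- against wt from -0.16 to 0.038 (0.038 without wt replicate 1, 0.03 without Stat5a-/- replicate 1 and 0.0056 without Stat5a-/- replicate 2).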

Other observations

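Other lysosomal hydrolases, a list of 46 genes that were all tested, gave 13 higher and 17 lower calls in Stat5b-/- against wt, 13 and 11 in Stat5a-/- against wt, and 8 and 16 in Stat5b-/- against Stat5a-/-. As shares these were 28.3% and 37.0%, 28.3% and 23.9%, and 17.4% and 34.8%, beside 24.2% and 22%, 19.8% and 16.3%, and 16.4% and 17.5% of all tested genes, to which the lists in the next paragraph compare as well. Hexa, the alpha subunit of beta-hexosaminidase, fell in Stat5b-/- from 22.9 ± 1.40 to 1.65 ± 0.450 normalized CPM (log2 -3.78, edgeR adjusted p = 2.94e-09) and was at 27.2 ± 2.44 in Stat5a-/-. Gaa, the acid alpha-glucosidase that degrades glycogen, was at 91.9 ± 14.1 in wt, 49.0 ± 12.9 in Stat5a-/- and 8.46 ± 2.54 in Stat5b-/- (log2 -3.44 against wt, edgeR adjusted p = 6.76e-08). Lgmn, the asparaginyl endopeptidase that processes cathepsins, fell in both lines, from 59.0 ± 2.06 to 24.2 ± 0.901 and 19.6 ± 0.130 (log2 -1.28 and -1.59). Gm2a, the activator protein with which hexosaminidase A degrades GM2 ganglioside, rose from 54.0 ± 0.558 to 531 ± 30.9 in Stat5a-/- and 163 ± 5.89 in Stat5b-/- (log2 3.30 and 1.59). The acid sphingomyelinase Smpd1 rose by 2.81 in Stat5a-/- and 1.88 in Stat5b-/- on the log2 scale, and Stat5b-/- lay below Stat5a-/- by -0.93 (edgeR adjusted p = 7.61e-05). The acid phosphatase Acp5 rose by 2.13 in Stat5a-/- and 2.07 in Stat5b-/-.

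Other lysosomal membrane proteins (25 of 29 tested) were called higher and lower in 6 and 2 cases in Stat5b-/- against wt, 3 and 5 in Stat5a-/- against wt, and 6 and 2 in Stat5b-/- against Stat5a-/-. The peptide and histidine transporter Slc15a3 went from 44.8 ± 6.80 normalized CPM in wt to 16.3 ± 1.76 in Stat5a-/- and 69.1 ± 7.39 in Stat5b-/- (log2 -1.46 and 0.63), and the channel Mcoln2 rose by 0.94 in Stat5b-/-. Cln3 fell in both lines (log2 -2.16 in Stat5a-/- and -0.81 in Stat5b-/-). In the list for sorting of lysosomal enzymes (13 of 14 tested) 2 were higher and 4 lower in Stat5b-/- against wt, 3 and 2 in Stat5a-/- against wt, and 0 and 3 in Stat5b-/- against Stat5a-/-. Igf2r, the mannose 6-phosphate receptor on chromosome 17, was at 38.8 ± 2.75 in wt, 75.8 ± 9.80 in Stat5a-/- and 10.98 ± 2.98 in Stat5b-/- (log2 0.97 and -1.82). The autophagy genes (18 of 18 tested) had 2 higher and 4 lower in Stat5b-/- against wt, 2 and 4 in Stat5a-/- against wt, and 3 and 1 in Stat5b-/- against Stat5a-/-. Gabarapl1, which encodes an ATG8-family protein, fell from 54.9 ± 4.76 to 19.2 ± 2.11 in Stat5a-/- and 21.1 ± 0.405 in Stat5b-/- (log2 -1.51 and -1.38), Map1lc3a fell as well (log2 -3.52 and -1.07), and the mitophagy receptor Bnip3 was higher in Stat5a-/- and lower in Stat5b-/- (log2 0.51 and -1.68). Atg12, on chromosome 18, rose in both lines (log2 0.64 in Stat5a-/- and 0.59 in Stat5b-/-). The other gene called higher in Stat5b-/- was Becn1 (log2 0.34).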
